A study of Rattus norvegicus with 18 samples.

Results

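The 8 rat genes described here, Mgat1, Mgat2, Mgat3, Mgat4a, Mgat4b, Mgat4c, Mgat5 and Mgat5b, encode N-acetylglucosaminyltransferases that set the number of branches on protein-linked sugars. They were taken by symbol from the 32623 genes of the deposited tables, and 8 of 8 were found. Mgat4c was chosen by its difference in level between IUO and PNO pups, so its levels and group differences are given as a description without a test. Only its relation to other measures within groups, after subtraction of group means, is tested. The other 7 members were listed by name, and the question put to them is whether Mgat4c moved alone in its family. Total RNA of the prefrontal cortex (PFC) was sequenced from 18 Sprague Dawley rat pups at postnatal day 14 (P14), 6 pups in each of 3 groups. In utero oxycodone (IUO) pups came from dams gavaged with the opioid oxycodone, started at 10 and brought to 15 mg/kg/day before mating and kept on it through pregnancy and nursing. Postnatal oxycodone (PNO) pups came from dams given 15 mg/kg/day only from birth of the litter onward, and control (SAL) pups came from saline-gavaged dams. The pups were thus exposed through the dam, and at P14 the IUO dams were still being dosed, so the IUO group carries both prenatal and postnatal exposure. The labels give no litter and no sex, so that p-values measure the spread between these pups only.

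N-linked glycans are attached to asparagine as a common mannose-rich tree, trimmed in the endoplasmic reticulum and Golgi, and then rebuilt with GlcNAc branches that are capped with galactose, fucose and sialic acid. MGAT1 adds the GlcNAc that opens the way to hybrid and complex glycans, and MGAT2 adds the next one on the other mannose arm. MGAT4A, MGAT4B and MGAT5 add further branches, whereas MGAT3 adds a bisecting GlcNAc that hinders additional branching and is abundant on brain glycoproteins. MGAT5B is a brain-enriched relative of MGAT5 that acts on O-mannose glycans. MGAT4C resembles MGAT4A and MGAT4B in sequence and has a less well defined activity.

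The libraries held between 18381819 and 26084780 expected counts, with a median of 22726306 and overlapping ranges in the 3 groups. No pair of pups within a group had identical values. All 8 members were kept by the filter on low counts, with gene counts from 80 for Mgat5 in SAL replicate 4 to 3882 for Mgat4b in an IUO pup. The lowest-count member was Mgat4c, with a median of 201 reads per pup (range 122 to 270). The relatives Mgat4d (0 to 9 counts) and Mgat4e (0 to 4 counts) did not pass the filter.

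All 9 excitatory neuron markers and all 8 inhibitory neuron markers on the lists used passed the filter on low counts. So did all 10 striatal and all 8 choroid plexus markers, so passing it does not identify the tissue. The summed level of the excitatory markers ranged from 1248 to 2788 CPM over the series. Marker levels of other cell types varied between the libraries. The summed level of 12 mature oligodendrocyte markers ranged from 1809 to 9627 CPM (counts scaled to library size) in SAL, from 3051 to 15514 in PNO and from 2295 to 5853 in IUO. All 12 were lower in IUO than in PNO at an unadjusted edgeR p below 0.05 (median log2 fold change -1.37), and 4 of 9 astrocyte and 3 of 6 oligodendrocyte precursor markers were lower likewise, where 9.14% of all genes were lower. The summed level of 10 striatal markers ranged from 579 to 2263 CPM in IUO against 320 to 1589 in PNO and 307 to 1908 in SAL, and that of 8 choroid plexus markers from 5 to 262, 10 to 985 and 9 to 552 CPM respectively. None of the markers tested was at 0 across the series. Beyond the covariate and left-out-pup fits given with the members, the part of these cell types in the results was not tested, and in bulk tissue fewer cells of a type and less RNA per cell cannot be told apart.

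Levels of the members were first compared per length, in TPM, the length-corrected relative abundance that the authors deposited. Mgat4b was the most abundant, at 79.6 ± 13.3 TPM (SD, n = 18 pups, range 55.1 to 115). It was followed by Mgat5b at 41.6 ± 9.58 TPM (26.1 to 64.1), and Mgat4b was the higher of this pair in 18 of 18 pups although their ranges over the series overlapped. Mgat1 (35.1 ± 4.19 TPM), Mgat3 (32.1 ± 12.4 TPM) and Mgat2 (24.6 ± 2.13 TPM) came next. These neighbours were not cleanly ordered: Mgat5b exceeded Mgat1 in 12 of 18 pups, Mgat1 exceeded Mgat3 in 12, and Mgat3 exceeded Mgat2 in 11. A step followed, since Mgat2 exceeded Mgat5 (9.96 ± 5.68 TPM) in 18 of 18 pups. Mgat5 and Mgat4a (9.44 ± 1.81 TPM) could not be ordered, with Mgat5 higher in 8 of 18 pups. Mgat4c had the lowest mean at 5.75 ± 1.44 TPM (3.68 to 8.02) and lay below Mgat4a in 18 of 18 pups, while Mgat5 lay below Mgat4c in 3 of 18.

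**Figure D1:**
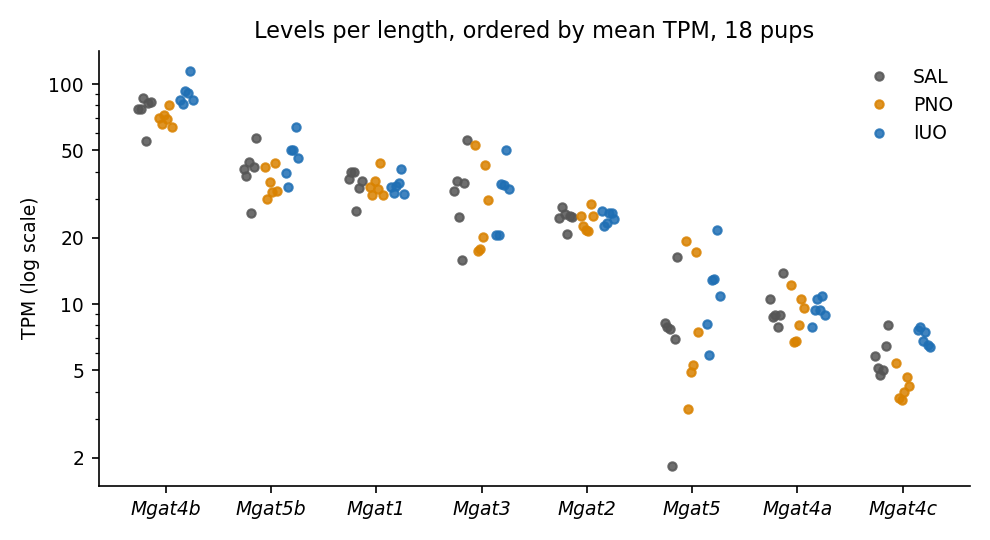
Deposited TPM of each member (log scale) in each of the 18 pups, coloured by group and ordered by mean level. Mgat4b has the highest and Mgat4c the lowest mean, and Mgat5 spreads from 1.84 to 21.8 TPM.

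Within the MGAT4 trio, most transcripts were Mgat4b. Its share of the summed TPM of Mgat4a, Mgat4b and Mgat4c was 83.9% ± 2.33 (SD, n = 18). Mgat4c made up 6.39% ± 1.09 of the trio in SAL, 5.13% ± 0.609 in PNO and 6.64% ± 1.1 in IUO (SD, n = 6 each). These shares overlapped between groups, from 4.42 to 6.17% in PNO and from 4.90 to 7.96% in IUO, so the trio remained dominated by Mgat4b in every pup.

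Mgat4c (ENSRNOG00000004149) was highest in IUO, intermediate in SAL and lowest in PNO. On the CPM scale, normalized with trimmed mean of M-values (TMM) factors, the 6 IUO pups ranged from 9.07 to 12.4 with a median of 10.8. The 6 SAL pups ranged from 7.21 to 10.3 with a median of 8.87. The 6 PNO pups lay between 6.39 and 7.44 with a median of 6.83. Every IUO pup was above every PNO pup, 5 of 6 PNO pups were below every SAL pup, and 4 of 6 IUO pups were above every SAL pup. The PNO group was the tightest, with an SD of 0.349 CPM against 1.27 in SAL and 1.23 in IUO. The fitted log2 fold change was 0.65 (standard error 0.10, 1.57-fold) for IUO vs PNO, made up of 0.28 (standard error 0.10) for IUO vs SAL and -0.37 (standard error 0.10) for PNO vs SAL. The IUO vs PNO values are those that chose the gene, and the other comparisons use the same pups, so no p-value is given for any of them.

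With the mature oligodendrocyte score in the model the IUO vs PNO difference of Mgat4c was 0.63 on the log2 scale. Leaving out the 6 pups with more than 1000 CPM in striatal markers, among them 3 of the 6 IUO pups, lowered it to 0.49 and lowered the IUO vs SAL difference from 0.28 to 0.06. Leaving out any single pup gave 0.60 to 0.69 in IUO vs PNO. Since every IUO pup lay above every PNO pup, the sign could not turn when pups were left out.

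**Figure D2:**
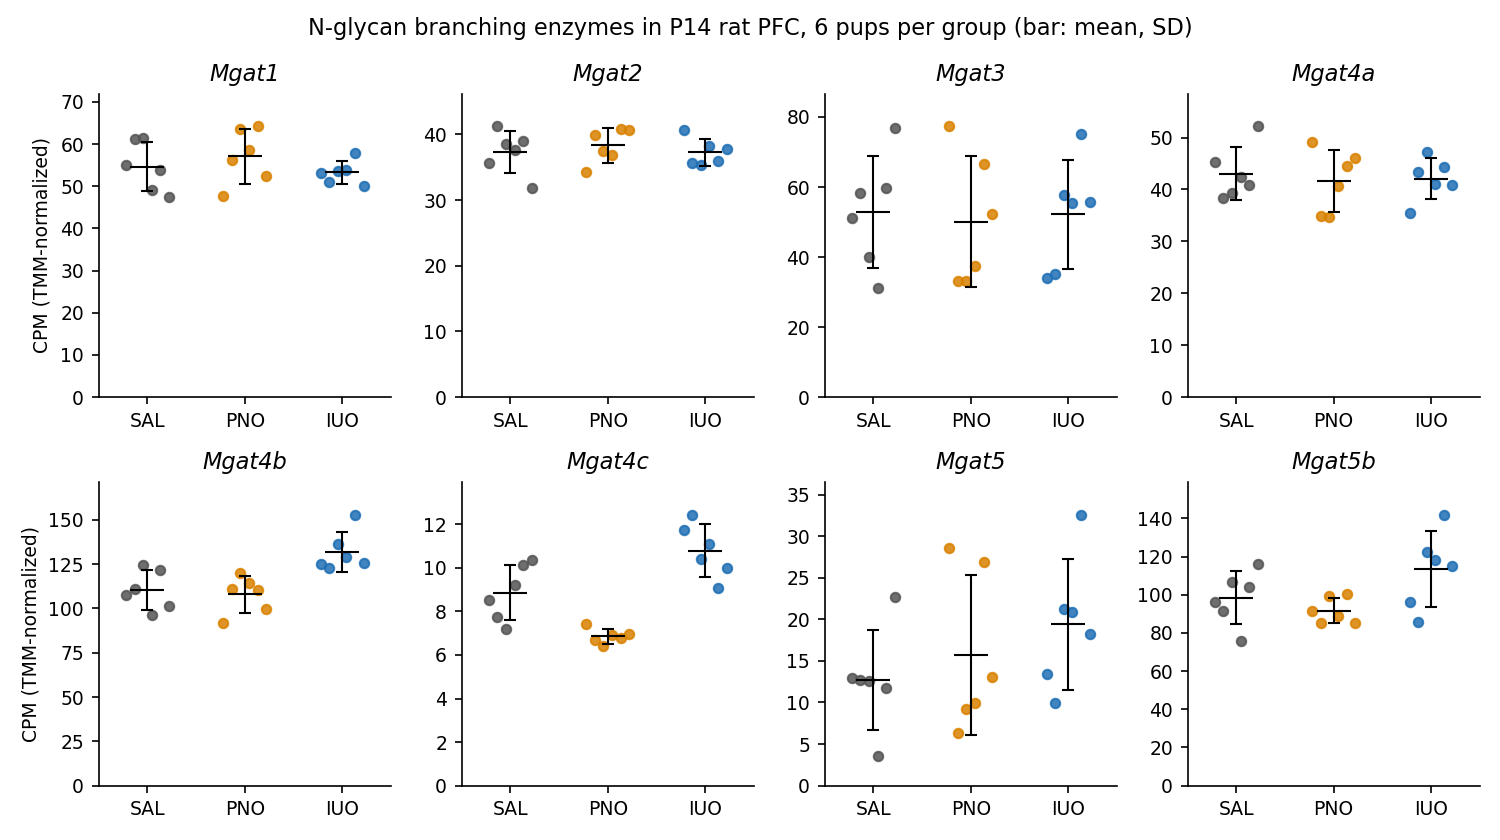
CPM of the 8 members in each pup, with 1 panel per gene, linear axes from 0, points for single pups and bars for the group mean and SD (6 pups per group). Mgat4b and Mgat4c have every IUO pup above every PNO pup, while the groups of the other members overlap.

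Of the other 7 members, none passed the thresholds of an adjusted p below 0.05 and at least 1.5-fold change in any comparison. In IUO vs PNO, 0.0446% of the 15703 genes tested passed them, and in PNO vs SAL and IUO vs SAL 0.0% did. At an unadjusted p below 0.05, edgeR's quasi-likelihood test gave 2 of the 7 as higher in IUO than in PNO, where 6.14% of all genes were higher and 15.3% differed in either direction. The corresponding counts were 1 of 7 higher in IUO vs SAL, where 3.02% of genes were higher and 6.88% differed, and 0 of 7 in PNO vs SAL, where 4.5% differed. None of the 7 was lower at this threshold in any comparison, against 9.14% of genes in IUO vs PNO, 3.87% in IUO vs SAL and 2.6% in PNO vs SAL, where 1.89% were higher. Mgat4b alone of the 7 had groups that did not overlap, in IUO vs PNO. No member had them in IUO vs SAL, where 0.369% of genes were fully higher and 0.376% fully lower, or in PNO vs SAL, where 0.0509% and 0.0573% were. The median log2 fold change of the 7 was 0.06 in IUO vs PNO, 0.00 in IUO vs SAL and -0.03 in PNO vs SAL, against -0.01 to 0.00 over all genes. DESeq2 and limma-voom also put 0 of the 7 past both thresholds in each comparison. Of 15699 and 15703 genes, they put 172 and 703 past both in IUO vs PNO. The counts were 22 and 17 in IUO vs SAL, and 1 and 0 in PNO vs SAL. With so few genes passing, 0 of 7 says little about the members.

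Mgat4b (ENSRNOG00000003235), the main MGAT4 enzyme in this tissue by transcript level, was the member whose pups separated in the manner of Mgat4c. Its level in IUO ranged from 122.8 to 153 CPM with a median of 128. PNO pups ranged from 91.8 to 120.3 CPM with a median of 111, and SAL pups from 96.2 to 125 CPM with a median of 109. All 6 IUO pups were above all 6 PNO pups, a full separation upward that 0.796% of all genes tested showed, and 5 of 6 IUO pups were above every SAL pup. The PNO and SAL ranges overlapped, with 1 PNO pup below every SAL pup. The log2 fold change was 0.29 for IUO vs PNO (95% interval 0.12 to 0.46, edgeR adjusted p = 0.122) and 0.26 for IUO vs SAL (0.09 to 0.43, edgeR adjusted p = 0.498). For PNO vs SAL it was -0.03 (-0.20 to 0.14, edgeR adjusted p = 0.95). The IUO vs PNO interval lies below the 1.5-fold threshold.

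The call on Mgat4b in IUO vs PNO depended on the tool, and the tools differed in how many genes they passed at an adjusted p below 0.05, from 0.0637% with edgeR to 2.78% with DESeq2 and 12.9% with limma-voom. The adjusted p was 0.0276 in DESeq2 (log2 difference 0.29) and 0.0253 in weighted limma-voom (0.26), and from 0.0816 to 0.527 under every other alternative tried. The highest of these came with the mature oligodendrocyte score as a covariate, where the log2 difference was 0.23 (standard error 0.10). Without the 6 striatal-high pups it was 0.39 (standard error 0.10). Whether the change of Mgat4c differs from that of Mgat4b was not tested.

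Mgat5b (ENSRNOG00000024954), the O-mannose branching enzyme, also had its highest mean in IUO. IUO pups ranged from 85.6 to 142 CPM with a median of 117, PNO pups from 85.2 to 100.5 with a median of 90.1, and SAL pups from 75.9 to 116 with a median of 100.05. Only 4 of 6 IUO pups were above every PNO pup, and the 2 lowest IUO pups lay within the PNO range. The log2 fold change was 0.31 for IUO vs PNO (95% interval 0.07 to 0.54, edgeR adjusted p = 0.212), 0.20 for IUO vs SAL (-0.03 to 0.44, edgeR adjusted p = 0.805) and -0.10 for PNO vs SAL (-0.34 to 0.13, edgeR adjusted p = 0.914). With the mature oligodendrocyte score as a covariate the difference of Mgat5b was 0.07 (standard error 0.12) in IUO vs PNO. In IUO vs SAL it was 0.1 (standard error 0.1). Without the 6 striatal-high pups it was 0.48 (standard error 0.12) in IUO vs PNO and 0.38 in IUO vs SAL. Leaving out IUO replicate 5 lowered the IUO vs SAL value to 0.12, and in PNO vs SAL the value was -0.17 without SAL replicate 4 and -0.05 without SAL replicate 6. Its adjusted p was 0.0286 with limma-voom, which passed 12.9% of all genes, and from 0.144 to 0.937 under the other alternatives.

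The enzymes that start complex glycans differed by 0.10 or less on the log2 scale in every comparison. Mgat1 (ENSRNOG00000031208) had medians of 54.4 CPM in SAL (47.4 to 61.5), 57.4 in PNO (47.7 to 64.3) and 53.5 in IUO (49.98 to 58.0), so all 3 groups overlapped. Its IUO vs PNO log2 fold change was -0.10, with a 95% interval of -0.27 to 0.07 (edgeR adjusted p = 0.576). Mgat2 (ENSRNOG00000004234) had medians of 38.1 CPM in SAL (31.9 to 41.3), 38.7 in PNO (34.2 to 40.9) and 36.9 in IUO (35.3 to 40.7). Its log2 fold changes lay between -0.04 and 0.04, and the widest reach of its intervals was from -0.18 to 0.18 (edgeR adjusted p of 0.798 or more). For both genes the intervals in all 3 comparisons stayed well within 1.5-fold. Mgat1 was the only member with 2 transcript models in the tables, and its deposited abundance-weighted length did not separate the groups (exact permutation p = 0.742 for PNO vs SAL, 0.277 for IUO vs SAL and 0.652 for IUO vs PNO, each adjusted p = 0.742).

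Mgat4a (ENSRNOG00000018276), the other characterised MGAT4 enzyme, had similar levels in the 3 groups. Its medians were 41.6 CPM in SAL (38.4 to 52.2), 42.6 in PNO (34.7 to 49.1) and 42.3 in IUO (35.6 to 47.2), with all groups overlapping. The IUO vs PNO log2 fold change was 0.02 (95% interval -0.19 to 0.22, edgeR adjusted p = 0.953).

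Mgat3 (ENSRNOG00000017434), which makes the bisecting GlcNAc, ranged widely in every group. SAL pups lay between 31.3 and 76.7 CPM with a median of 54.7, PNO pups between 33.2 and 77.4 with a median of 44.9, and IUO pups between 34.2 and 75.05 with a median of 55.6. Its IUO vs PNO log2 fold change of 0.06 had a 95% interval of -0.47 to 0.59 (edgeR adjusted p = 0.923), so that a difference of up to about that size in either direction was not detectable at this spread.

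Mgat5 (ENSRNOG00000003614), whose branch carries the poly-LacNAc chains bound by galectins, had its lowest mean in SAL and its highest in IUO, with wide spread in each group. SAL pups ranged from 3.61 to 22.7 CPM (median 12.7), PNO pups from 6.33 to 28.6 (median 11.5) and IUO pups from 9.94 to 32.6 (median 19.5). All pairs of groups overlapped, with 1 of 6 IUO pups and 2 of 6 PNO pups above every SAL pup. The log2 fold change was 0.61 for IUO vs SAL, with a 95% interval from -0.24 to 1.46 (edgeR adjusted p = 0.878), and 0.31 for both PNO vs SAL (-0.54 to 1.15, edgeR adjusted p = 0.919) and IUO vs PNO (-0.54 to 1.15, edgeR adjusted p = 0.732). These values moved by over 1.5 times with single pups left out, between 0.39 and 0.85 in IUO vs SAL, 0.04 and 0.55 in PNO vs SAL and 0.09 and 0.56 in IUO vs PNO. Without IUO replicate 5 the log2 difference was 0.39 in IUO vs SAL and 0.09 in IUO vs PNO, and without PNO replicate 1 it was 0.04 in PNO vs SAL and 0.56 in IUO vs PNO. With the mitochondrial share of counts as a covariate it was 0.54 in IUO vs SAL, 0.51 in PNO vs SAL and 0.04 in IUO vs PNO (standard error 0.16 each, edgeR adjusted p of 0.278 or more). With the mature oligodendrocyte score it was 0.38, 0.67 and -0.29, and limma-voom gave 0.77, 0.04 and 0.72 in the same order. Mgat5 was also the member whose expected counts were not whole numbers, in 14 of 18 pups, so part of its reads was shared out among features by the authors' estimate.

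**Figure D3:**
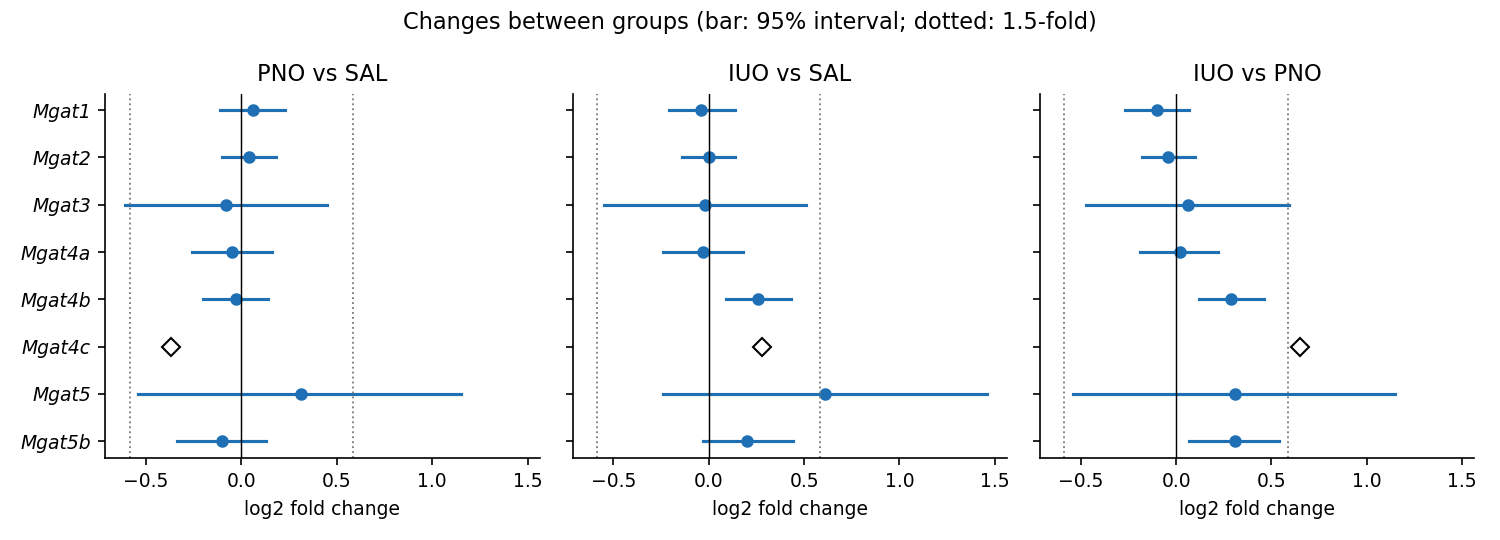
Log2 fold change of each member in the 3 comparisons, with 95% intervals from edgeR's quasi-likelihood fit and dotted lines at 1.5-fold; Mgat4c is an open diamond without an interval because its values chose it. The IUO vs PNO intervals of Mgat4b (0.12 to 0.46) and Mgat5b (0.07 to 0.54) lie above 0 and inside the dotted lines, and those of Mgat3 and Mgat5 span 0 widely.

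The members differed widely in their spread between pups of one group. The within-group SD of log2 CPM was 0.79 for Mgat5, which placed it at the 94.0 percentile of the 15703 genes, and 0.48 for Mgat3 (79.9 percentile). Mgat5 ranged 9.02-fold over the 18 pups. At the other end, Mgat2 had an SD of 0.10 (6.85 percentile), with Mgat1 and Mgat4b at 0.14, Mgat4c at 0.16 (23.0 percentile), Mgat4a at 0.17 and Mgat5b at 0.20. Mgat3 and Mgat5 thus varied most.

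The variable members moved together from pup to pup. After group means were subtracted from log2 CPM, Mgat3 and Mgat5 had r = 0.92 and rho = 0.88 over 18 pups (permutation p = 2e-05, adjusted over 28 pairs p = 0.00056). The value was 0.92 without the 2 pups farthest from the median of Mgat3, and 0.87, 0.96 and 0.95 within SAL, PNO and IUO. Of all genes tested, 1.34% correlated with Mgat5 at least as strongly as Mgat3 did. Mgat5b joined them less tightly, with r = 0.75 and rho = 0.72 to Mgat5 (permutation p = 0.0002, adjusted p = 0.0028; 0.67 without the 2 farthest pups; 0.92, 0.44 and 0.99 within SAL, PNO and IUO). For Mgat3 and Mgat5b r was 0.67 and rho 0.70 (permutation p = 0.00256, adjusted p = 0.0143; 0.54 without the 2 farthest pups), and 0.21 within PNO. As many as 12% of genes correlated with Mgat5 at least as strongly as Mgat5b did, so these relations are shared by many genes. Such shares were computed for positive pairs only. Mgat4a also rose and fell with Mgat3 (r = 0.69, rho = 0.61, permutation p = 0.00512, adjusted p = 0.0239; 0.70 without the 2 farthest pups; 0.47, 0.92 and 0.57 within SAL, PNO and IUO), as 15.2% of genes did at least as strongly. It ran against Mgat2 (r = -0.65, rho = -0.57, permutation p = 0.00809, adjusted p = 0.0324; -0.40 without the 2 farthest pups; -0.98, -0.20 and -0.96 within groups), although the adjusted p of rho was 0.0511 for the former pair and 0.0678 for the latter.

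These members followed the share of counts from mitochondrially encoded genes, which ranged from 7.31 to 16.3% in SAL, 8.04 to 13.7% in PNO and 6.96 to 12.5% in IUO. Mgat5 fell as this share rose, with r = -0.93 and rho = -0.91 after subtraction of group means (permutation p = 2e-05, adjusted over 8 members p = 0.00016). The relation held within each group, with r of -1.0 in SAL, -0.86 in PNO and -0.93 in IUO, and was -0.88 without the 2 pups farthest from the median share. Only 0.108% of all genes had a value as low. Mgat3 had r = -0.82 and rho = -0.78 (permutation p = 0.00014, adjusted p = 0.00056; -0.76 without the 2 farthest pups; -0.85, -0.82 and -0.83 within SAL, PNO and IUO). Mgat5b had r = -0.76 and rho = -0.73 (permutation p = 0.00026, adjusted p = 0.000693; -0.62 without the 2 farthest pups; -0.92, -0.52 and -0.89 within SAL, PNO and IUO). Values as low as these were found for 4.43% and 8.86% of genes, and 33.5% of genes had an r of 0.6 or more in size. Mgat4c did not follow the share (r = 0.13, rho = 0.15, permutation p = 0.673), nor did Mgat1, Mgat2, Mgat4a or Mgat4b pass (adjusted p of 0.282 or more). Within groups these values were not uniform: r was 0.83 in IUO, -0.46 in PNO and -0.02 in SAL for Mgat4c, -0.83, 0.16 and -0.17 for Mgat1, and -0.88, 0.46 and -0.39 for Mgat4b, and the differences between groups were not tested.

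**Figure D4:**
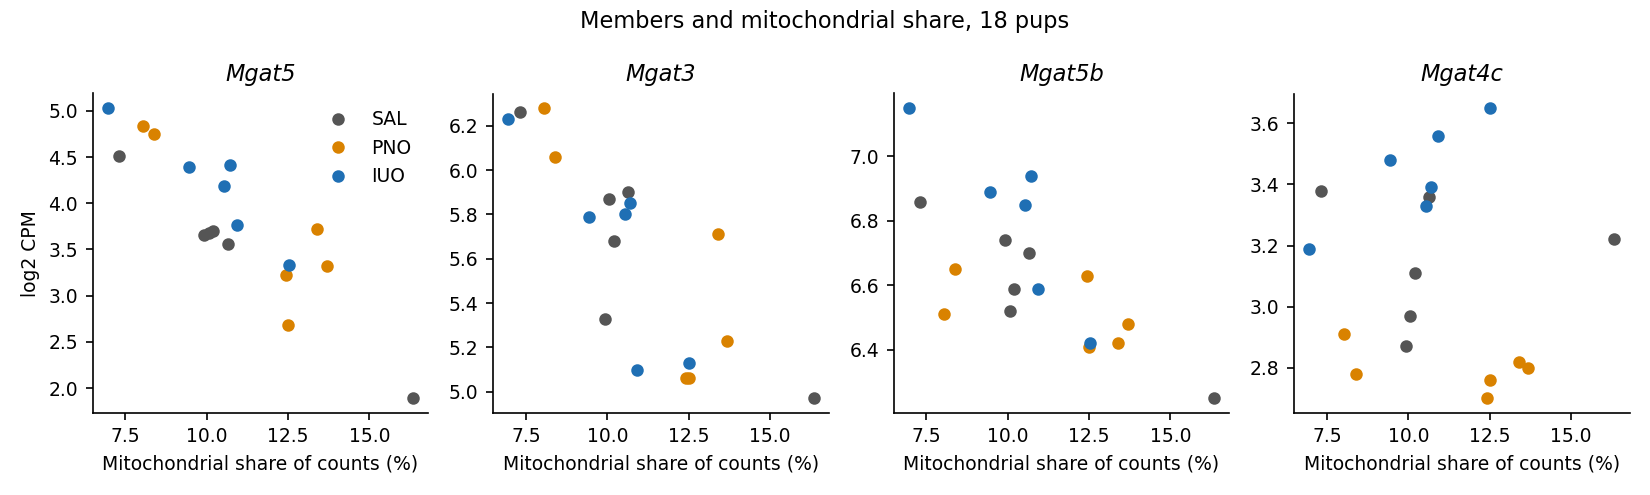
Log2 CPM of Mgat5, Mgat3, Mgat5b and Mgat4c against the mitochondrial share of counts in percent, 1 point per pup, coloured by group. The first 3 fall along the axis, with r of -0.93, -0.82 and -0.76 after subtraction of group means, and Mgat4c does not (r = 0.13).

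The ratio of the bisecting to the branching transcript, Mgat3 over Mgat5 in TPM, was 4.83 ± 2.01 in SAL, 3.65 ± 0.997 in PNO and 2.81 ± 0.435 in IUO (SD, n = 6 each). The highest SAL pup, replicate 4, reached 8.66 and is the pup flagged below for its low Mgat5. The medians were 4.29 in SAL, 3.72 in PNO and 2.7 in IUO. The ranges of all 3 groups overlapped, from 3.2 upward in SAL and up to 3.54 in IUO, and the ratio was not tested.

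A different pairing joined Mgat1 and Mgat4b. They had r = 0.81 and rho = 0.77 after subtraction of group means (permutation p = 0.00034, adjusted p = 0.00317). The value was 0.74 without the 2 farthest pups and 0.72, 0.91 and 0.88 within SAL, PNO and IUO. Only 0.0318% of all genes correlated with Mgat1 at least as strongly. Mgat4c was negatively related to Mgat1, although the share of all genes related as strongly was not computed. Its r was -0.68 and rho -0.66 (permutation p = 0.0012, adjusted over its 7 relations p = 0.0084; -0.61 without the 2 farthest pups; -0.87, -0.85 and -0.53 within SAL, PNO and IUO). With Mgat4b its r was -0.58 (permutation p = 0.0175), which did not pass after adjustment over its 7 relations (adjusted p = 0.0613). Over the 28 pairs the adjusted p was 0.0544 for r and 0.0471 for the rho of -0.63 (permutation p = 0.0101). The call thus depended on the measure. The value of r was -0.47 without the 2 farthest pups, and -0.41, -0.91 and -0.83 within SAL, PNO and IUO. Before group means were subtracted the sign was the opposite, r = 0.37, because both genes had their highest group mean in IUO. The remaining 5 relations of Mgat4c had adjusted p of 0.382 or more; within the 6 IUO pups alone its r with Mgat3, Mgat5 and Mgat5b was -0.93, -0.92 and -0.93, against 0.75, 0.62 and -0.36 in PNO, a difference that was not tested.

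**Figure D5:**
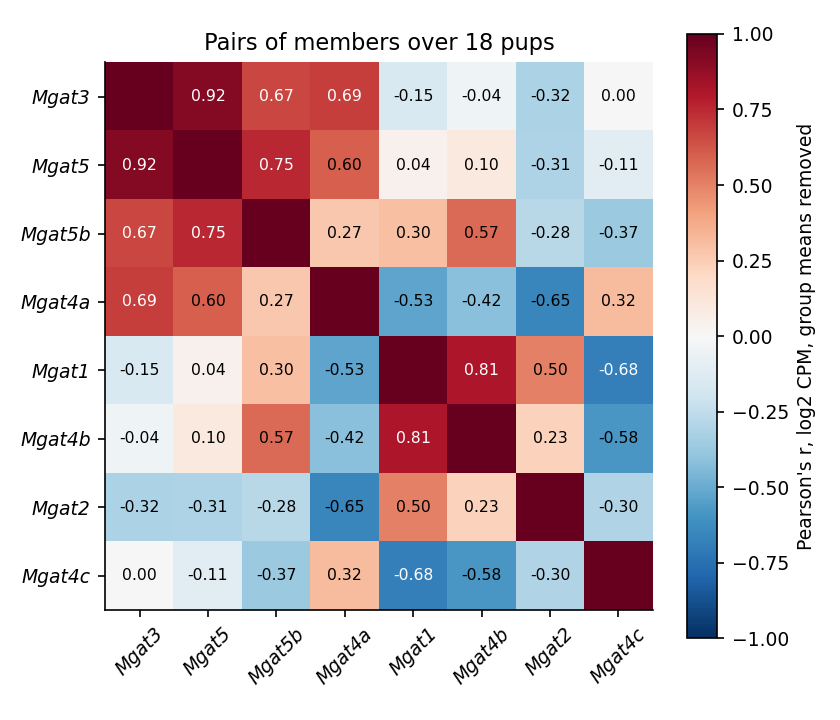
Pearson's r of log2 CPM after subtraction of group means for the 28 pairs of members over 18 pups, as a colour map from -1 to 1. Mgat3, Mgat5 and Mgat5b form a positive block (0.67 to 0.92), Mgat4a is positive with Mgat3 (0.69), Mgat1 and Mgat4b form a positive pair (0.81), and Mgat4c is negative with Mgat1 and Mgat4b (-0.68 and -0.58).

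Promoter sequence is shown for Mgat2, the member with the least spread, and Mgat5b, which varied with Mgat3 and Mgat5, since these are the members whose 250-base RefSeq window ends at the annotated gene start (GRCr8). The build used for the deposited tables is not given in the sources used here, and these sequences bear on RefSeq only. The Mgat2 window is chr6:93392166-93392415 and the Mgat5b window chr10:102619309-102619558, both on the plus strand, each written 5′ to 3′ with matches to GGGCGG, the core of the GC box bound by SP1-type factors, in capitals.
Mgat2: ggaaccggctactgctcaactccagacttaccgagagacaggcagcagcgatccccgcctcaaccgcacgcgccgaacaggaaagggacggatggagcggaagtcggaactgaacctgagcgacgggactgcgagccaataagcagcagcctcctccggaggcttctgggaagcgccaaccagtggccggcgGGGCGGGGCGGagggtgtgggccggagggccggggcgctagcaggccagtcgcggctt
Mgat5b: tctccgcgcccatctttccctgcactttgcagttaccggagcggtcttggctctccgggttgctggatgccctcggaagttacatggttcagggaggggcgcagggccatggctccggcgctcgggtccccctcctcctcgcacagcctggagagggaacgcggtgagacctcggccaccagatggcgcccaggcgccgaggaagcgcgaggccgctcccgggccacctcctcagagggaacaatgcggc
The windows are alike in base composition, with 68.0% G and C for Mgat2 and 68.4% for Mgat5b. The Mgat2 window held 2 overlapping GGGCGG matches and 1 CCAAT match, and neither window held CACGTG. The Mgat5b window held none of these letters on either strand. Over 33469 RefSeq promoter windows of the same length, GGGCGG occurred on either strand in 30.5%, CCAAT in 34.0% and CACGTG in 5.59%.

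The rest of the glycan pathway was examined in 6 lists of 130 genes, 115 of which were tested. None passed an adjusted p below 0.05 with edgeR in any comparison. In IUO vs PNO, DESeq2 passed 2 of them, both lower, where it passed 2.78% of all genes, and limma-voom passed 10, 8 lower and 2 higher, where it passed 12.9% of all genes. Of the genes that limma-voom passed, 1 (Gcnt4) also had at least 1.5-fold change, as did 703 of all 15703 genes with that tool. Neither tool passed any in the other comparisons. At an unadjusted p below 0.05, 13 of 115 (11.3%) differed in IUO vs PNO, 3 higher and 10 lower, which is below the 15.3% of all genes. In IUO vs SAL 4 of 115 (3.48%) did so against 6.88% of all genes, and in PNO vs SAL 3 of 115 (2.61%) against 4.5%. The median log2 fold changes of the 115 were -0.03, 0.00 and 0.03 in these comparisons, close to those of all genes.

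The genes that cap finished branches held the smallest p-value of the lists. St3gal6, a sialyltransferase that acts on galactose ends, was at 6.07 ± 0.370 CPM in IUO (5.68 to 6.64), 8.18 ± 1.33 in PNO (6.47 to 9.70) and 7.99 ± 0.913 in SAL (7.13 to 9.67) (SD, n = 6 each). Every IUO pup was below every SAL pup, as for 0.376% of all genes, and IUO and PNO overlapped. The log2 fold change was -0.43 for IUO vs PNO (95% interval -0.67 to -0.19, edgeR adjusted p = 0.11) and -0.40 for IUO vs SAL (edgeR adjusted p = 0.424). Its relative St3gal4 had -0.25 in IUO vs PNO (edgeR adjusted p = 0.171), and Fut8, which adds the core fucose, had -0.21 (edgeR adjusted p = 0.293). Of the 24 tested genes of this list, 3 (12.5%) were lower and 0 higher at the unadjusted threshold in IUO vs PNO, against 9.14% and 6.14% of all genes.

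In the O-mannose list, which holds the substrates' pathway of MGAT5B, 3 of 15 genes differed at an unadjusted p below 0.05 in IUO vs PNO, where 15.3% of all genes did. Tmem5 (Rxylt1), a xylosyltransferase of the dystroglycan glycan, was at 24.6 ± 0.726 CPM in IUO (23.7 to 25.5) and 28.4 ± 1.51 in PNO (25.98 to 30.1) (SD, n = 6), so that the groups did not overlap, as in the 0.86% of all genes that were fully lower. Its log2 fold change was -0.21 (edgeR adjusted p = 0.119). Pomt1, a subunit of the enzyme that attaches the mannose, had -0.21 (edgeR adjusted p = 0.285), and Large2, which extends the glycan, had 0.70 at a mean of only 1.81 CPM in IUO (edgeR adjusted p = 0.316).

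Among the genes that build and transfer the precursor, 4 of 34 (11.8%) were lower and 0 higher in IUO vs PNO at the unadjusted threshold, near the 9.14% of all genes that were lower. The oligosaccharyltransferase subunits Ost4 (-0.37, edgeR adjusted p = 0.233) and Magt1 (-0.23, edgeR adjusted p = 0.282) and Dpm3, a subunit of the dolichol-phosphate-mannose synthase (-0.36, edgeR adjusted p = 0.303), had the smallest p-values. Of the 12 trimming enzymes none differed at the unadjusted threshold in any of the 3 comparisons, where 15.3%, 6.88% and 4.5% of all genes did in IUO vs PNO, IUO vs SAL and PNO vs SAL. Slc35d2, a nucleotide sugar transporter, had -0.43 in IUO vs PNO (edgeR adjusted p = 0.325), the single gene of 18 in its list (5.56%) at an unadjusted p below 0.05, against 15.3% of all genes. Of the galectins and other GlcNAc transferases, 2 of 12 (16.7%) were higher, where 6.14% of all genes were higher and 15.3% differed in either direction. They were Eogt, which places GlcNAc on extracellular domains, at 0.24 (edgeR adjusted p = 0.209), and the galectin Lgals5 at 1.63 (edgeR adjusted p = 0.24), the latter over a range of 0.540 to 12.7 CPM within IUO.

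Likeness to Mgat4c was ranked over all genes tested. Over 18 pups the highest Pearson's r to Mgat4c in log2 CPM were those of Rn60_1_2212.3 (0.83), Zcchc2 (0.82), Trim24 (0.81), Micb (0.80) and Scarb1 (0.80). These values include the group difference that chose Mgat4c, and within PNO and IUO r was -0.68 and -0.38 for Scarb1 and 0.01 and 0.56 for Rn60_1_2212.3. With group means removed they were AABR07005752.1 (0.88), Polk (0.87), Rbl2 (0.80), Prkrip1 (0.78) and Qsox2 (0.77). The highest value of a family member was 0.37 in the first measure (Mgat4b) and 0.32 in the second (Mgat4a). These values rank genes by likeness over the same libraries and carry no test; the top of 15703 genes is bound to lie above the best of 7 members.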

How the data were processed

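PFC RNA of 18 P14 rat pups (SAL, PNO and IUO, 6 each) was sequenced with TruSeq V2 libraries as single reads on 1 flow cell. The authors deposited 1 table per pup with expected counts per gene, TPM, FPKM and a gene length; the aligner, genome build and annotation are not given in the sources used here. The expected counts, which the authors deposited as estimates that need not be whole, were rounded. TPM values, as deposited, were used to compare levels between genes, and FPKM values, as deposited, give the same order within a pup by construction. Genes were kept with edgeR's filterByExpr (15703 of 32623), TMM-normalized and tested with edgeR 4.0.16 (quasi-likelihood, two-sided, 1 model over 18 pups, 15 residual degrees of freedom, Benjamini-Hochberg over all genes) in R 4.3.3. Called genes had an adjusted p below 0.05 and at least 1.5-fold change. Log2 CPM carried a prior count of 2. Correlation p-values came from 100000 permutations within groups in numpy 2.4.6. Ranks and the exact length test used scipy 1.17.1. The edgeR fit was tested on simulated counts. Alternatives were DESeq2 1.42.0, limma 3.58.1 voom with sample weights, DESeq2 size factors, no normalization, other filters, the 12 pups compared only, a replicate block, myelin, striatal or mitochondrial covariates, and pups left out.

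Named genes were the 8 members; of each pathway list the genes called or, with none, up to 3 with the smallest unadjusted p below 0.05 in IUO vs PNO; and the 5 genes most correlated with Mgat4c by each of 2 measures. The members and lists were chosen with earlier results of these data known. Library totals were 18381819 to 26084780.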

Additional observations from a re-analysis of the deposited data

Results flagged for a closer look

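One of 24 combinations of member and group had a pup far from the others. SAL replicate 4 had the lowest level of Mgat5, 1.89 in log2 CPM, against 3.56 for the nearest SAL pup, a gap that was 0.638 of the group's range and above Dixon's 95% limit for 6 samples. Chance alone marks about 1 in 20 such groups. The same pup had the highest mitochondrial share of the series, 16.3%, and 80 counts of Mgat5. The part of that share in the value was not tested.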

How the results depend on the processing

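None of the 7 members beside Mgat4c passed both thresholds in any comparison under any alternative run. The runs included each of the 18 pups left out in turn. Few of all genes passed either, at most 703 of 15703 (limma-voom, IUO vs PNO). The difference of Mgat4c in IUO vs PNO chose the gene, and every IUO pup lay above every PNO pup. Its sign could therefore not turn when pups were left out, and its values here are a description. On the log2 scale it was 0.49 without the 6 pups above 1000 CPM in striatal markers. That fit was chosen after seeing the data. So were the mitochondrial covariate and the fits without the 3 pups above 500 CPM in choroid plexus markers. Without those 6 pups the IUO vs SAL difference of Mgat4c was 0.06. Mgat4b in IUO vs PNO passed the adjusted threshold with DESeq2 (0.29) and limma-voom (0.26), and Mgat5b with limma-voom (0.35), tools that passed 2.78% (DESeq2) and 12.9% (limma-voom) of all genes. FPKM gave the order of mean levels that TPM gave, which within a pup is so by construction. The correlations of Mgat3 with Mgat5, Mgat5 with Mgat5b, Mgat3 with Mgat5b and Mgat1 with Mgat4b kept their sign and their side of the threshold without normalization and in TPM. No scaling moved the median of all genes by more than 0.04. Where a direction or count changed, the cause was not tested.

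Directions changed only for small or widely spread differences. With the mature oligodendrocyte score as a covariate, PNO vs SAL became 0.18 for Mgat3, 0.02 for Mgat4a and 0.02 for Mgat5b, and IUO vs PNO became -0.38 for Mgat3, -0.10 for Mgat4a and -0.29 for Mgat5. With the mitochondrial share, Mgat3 became 0.01 in PNO vs SAL and -0.11 in IUO vs PNO, and Mgat4a -0.01 in IUO vs PNO. In IUO vs SAL, limma-voom gave 0.09 for Mgat3 and 0.04 for Mgat4a, the striatal score 0.10 for Mgat3, and the fit without the 6 striatal-high pups 0.15 for Mgat3, 0.02 for Mgat4a and 0.02 for Mgat1. In PNO vs SAL, Mgat2 was -0.01 without normalization and Mgat4b 0.02 without the 3 choroid-plexus-high pups. With single pups left out, the ranges that crossed 0 were, in PNO vs SAL, -0.01 to 0.07 for Mgat2, -0.25 to 0.05 for Mgat3, -0.10 to 0.01 for Mgat4a and -0.07 to 0.01 for Mgat4b. In IUO vs SAL they were -0.16 to 0.11 for Mgat3, -0.07 to 0.02 for Mgat4a and -0.05 to 0.03 for Mgat2, and in IUO vs PNO -0.08 to 0.22 for Mgat3 and -0.03 to 0.06 for Mgat4a. Mgat5 kept its sign with any single pup left out, but ranged from 0.04 to 0.55 in PNO vs SAL, 0.39 to 0.85 in IUO vs SAL and 0.09 to 0.56 in IUO vs PNO.

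The number of genes called over the whole table was unstable, which bears on the background set beside the members. In IUO vs PNO it was 7, and 172 with DESeq2, 703 with limma-voom, 50 with the 12 pups compared only, 13 without normalization, 17 with the mitochondrial share, 2 with the oligodendrocyte score, 2 with the striatal score and 0 without the striatal-high pups. With 1 pup left out it ran from 0 (PNO replicate 4, PNO replicate 6 or IUO replicate 3) to 58 (PNO replicate 5), and it stayed within 1.5 times of 7 only without SAL replicate 5 or PNO replicate 1. In IUO vs SAL it was 22 with DESeq2, 17 with limma-voom, 1 without the choroid-plexus-high pups, and 0 to 1 with 1 pup left out (1 without SAL replicate 2); in PNO vs SAL it was 1 with DESeq2. The pathway genes past an unadjusted p of 0.05 numbered 7 with limma-voom, 1 without normalization, 0 with the 12 pups only and 1 without the striatal-high pups in PNO vs SAL (0 to 6 with 1 pup left out, 0 without SAL replicate 1, 1 without SAL replicate 6 and 6 without PNO replicate 5). In IUO vs SAL they numbered 21 with limma-voom and 7 with the oligodendrocyte score (4 to 8 with 1 pup left out, 8 without SAL replicate 5), and in IUO vs PNO 38 with limma-voom (7 to 20 with 1 pup left out, 7 without IUO replicate 3, 8 without IUO replicate 5 and 20 without PNO replicate 1).

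Same-numbered pups did not deviate together (correlations from -0.301 to 0.488), so the numbers do not pair them. With the replicate number as a block, 5 genes were called in IUO vs PNO and 0 in both other comparisons, Mgat4c had 0.65 and Mgat4b 0.29 in IUO vs PNO, and no call on a member changed.

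Mgat4c had a median of 201 reads per pup, the fewest of the members, and the widest intervals were those of Mgat5 and Mgat3, whose spread between pups was the largest of the 8.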
